A study of Homo sapiens with 3 samples.

Results

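FOXA1, FOXA2, FOXA3, HHEX, HNF4A, PROX1, ONECUT1 and CEBPA are 8 transcription factors of endoderm and liver, and all 8 had a row among the 32738 genes of the merged count table. They were taken by name and followed by day and by cell group in chambered cardiac organoids (CCOs), from early endoderm at days 8 and 14 (D8 and D14) to hepatic cells at day 21 (D21). CCOs are small beating structures with an inner cavity, grown here from H7, a human embryonic stem cell line, so all 3 days come from a single line and no group carried an allele that the others lacked. Cells were differentiated with CHIR99021 (a GSK3 inhibitor that switches on Wnt signalling) followed by IWP-2 (a Wnt inhibitor), were dissociated and embedded in Matrigel, stayed in cardio-sphere growth medium (CGM) until D14, and were then kept in RPMI with B27 in a spinner flask. D8 and D14 libraries thus hold cells in CGM and the D21 library holds cells after the change to RPMI with B27. Each day was 1 droplet single-cell library with counts of unique molecular identifiers (UMIs), so library, medium and day cannot be told apart, no p-value compares the days, and every interval given is a 95% interval of counting error only. How many organoids were pooled in a library was not given in the sources used here.

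Definitive endoderm forms at gastrulation and its anterior part becomes the foregut, from which liver, pancreas and lung bud. FOXA1, FOXA2 and FOXA3 are forkhead factors that open closed chromatin and prepare foregut cells to switch on liver genes. HHEX, a homeobox repressor, is needed for the liver bud to form and is also made by endothelial cells, PROX1 is needed for hepatoblasts to leave the bud, and ONECUT1, HNF4A and CEBPA then act on each other and on the promoters of plasma protein and metabolic genes as hepatoblasts become hepatocytes. Cardiac differentiation of stem cells passes through mesendoderm, the common source of heart mesoderm and endoderm.

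Of 17327 barcodes, 8188 passed the limits on genes and mitochondrial UMIs, with 2657 from D8, 3585 from D14 and 1946 from D21 and medians of 15316, 12282 and 14105.5 UMIs per cell. Cells were clustered with the 8 genes and the other listed transcription factors left out, so that no group rests on them. Clusters 11 and 14 were called early endoderm-like, having 7 and 6 of 8 markers (such as EPCAM, TTR and APOA2) raised over the other cells of their library, and cluster 9 was called hepatic-like, having all 12 hepatic markers raised. Cluster 9 also had 7 of the 8 early endoderm markers raised, so that list does not set early and hepatic-like cells apart: TTR was at 666, 604 and 1418 CPM and APOA2 at 435, 305 and 30542 CPM over the 3 days. This gave 256 early endoderm-like cells at D8 (9.63% of cells), 205 at D14 (5.72%) and 306 hepatic-like cells at D21 (15.7%). Cluster 11 held 255 of the D8 cells and cluster 14 held 174 of the D14 cells. The label of early endoderm fitted its markers in part: EPCAM stood at 682 and 475 CPM (UMIs of the gene per 1000000 UMIs of the group) on D8 and D14, but SOX17, a factor of definitive endoderm, at 28.5 and 3.16 CPM. ALB was at 0 and 0.632 CPM in the early cells and AFP at 0.302 and 2.32 CPM, against 31641 and 11279 CPM in the hepatic-like cells. Other hepatic markers were present in the early cells, with clusters 11 and 14 having 3 and 2 of the 12 raised. On D8 and D14 SERPINA1 was at 20.4 and 39.8 CPM, APOB at 49.3 and 18.5 CPM and VTN at 19.9 and 56.0 CPM. The 12 markers summed to 97.0 and 151 CPM in the early cells, against 94057 CPM in the hepatic-like cells. The summed CM markers were at 348, 798 and 2011 CPM in the 3 endoderm groups, against 9653, 27399 and 54733 CPM in the CM-like (cardiomyocyte-like) cells of the same days. The summed markers of dividing cells were at 1045, 695 and 68.8 CPM, and all 8 were 2-fold or more lower at D21 than at D14 and at D8. Median mitochondrial shares were 1.59%, 1.89% and 7.68% in the endoderm groups, and the part of these measures in the differences below was not tested. Between 25 and 59 cell barcodes were shared by each pair of libraries, at most 14 of them among kept cells. No library was left out.

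The 8 genes showed 3 patterns across the days. FOXA2 and HHEX were high in early endoderm-like cells on both days and lower in hepatic-like cells. HNF4A, PROX1, ONECUT1 and CEBPA were near the bottom of the measured range at D8 and at their highest at D21. FOXA1 and FOXA3 were present in all 3 groups, with a smaller range than HNF4A, PROX1, ONECUT1 and CEBPA. The log2 ratio of FOXA1 for D21 over D8, 1.61, was near the size of that of HHEX, -1.78. CPM values are compared between groups of cells for the same gene, not between genes. Ratios and folds of the 8 genes are taken with 1 count added to both groups, so they can differ from the quotient of the CPM values.

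**Figure D1:**
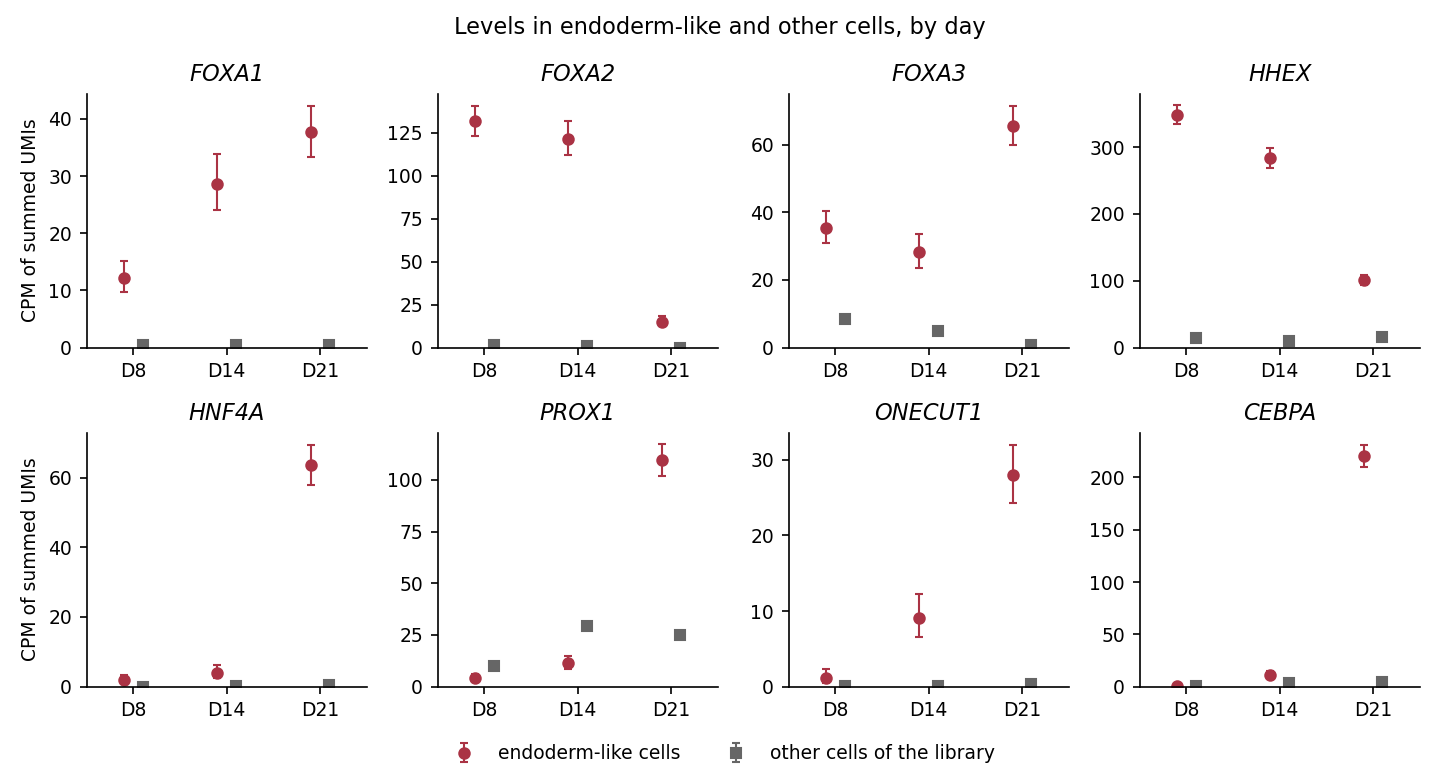
CPM of summed UMIs (y axis, from 0, with its own scale in each panel) of the 8 genes by day (x axis), in endoderm-like cells (circles: early endoderm-like at D8 and D14, hepatic-like at D21) and in all other cells of the same library (squares), with 95% Poisson intervals and 1 library per day. FOXA2 goes from 132 CPM at D8 to 15.2 CPM at D21, while CEBPA goes from 0.905 to 221 CPM, and PROX1 is the gene whose early endoderm-like cells lie below the other cells of their library.

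FOXA1, the forkhead factor that opens chromatin together with FOXA2, had 81 UMIs in D8 early endoderm-like cells, which is 12.2 CPM (9.7 to 15.2). It had 136 UMIs at D14, 28.7 CPM (24 to 33.9), and 283 UMIs in D21 hepatic-like cells, 37.7 CPM (33.4 to 42.3). D8 lay below both later groups, while the intervals of D14 and D21 overlapped slightly. The log2 ratio was 1.22 (0.82 to 1.65) for D14 over D8 and 0.39 (0.09 to 0.70) for D21 over D14, and the latter was -0.29 when cells were gated by markers instead of clusters. For D21 over D8 the log2 ratio was 1.61. FOXA1 had 19 UMIs in all other D8 cells together, 25 in all other D14 cells and 11 in all other D21 cells. Of the 25 at D14, 8 were in 6 cells of the hepatic-like cluster.

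FOXA2, the forkhead factor of the node, floor plate and all early endoderm, had 874 UMIs at D8, 132 CPM (123 to 141). It had 577 UMIs at D14, 122 CPM (112 to 132), and 114 UMIs at D21, 15.2 CPM (12.5 to 18.2). The D8 and D14 levels could not be separated by their counting error, whereas hepatic-like cells lay far below both. D14 cells had 7.96 times the D21 level and D8 cells 8.62 times, log2 ratios of -2.99 (-3.30 to -2.71) and -3.11 (-3.41 to -2.84) for D21 over each. Of all FOXA2 UMIs in a library, early endoderm-like cells held 94.5% at D8 and 91.6% at D14, and hepatic-like cells 99.1% at D21. A further 16 FOXA2 UMIs at D14 were in 6 cells of the hepatic-like cluster.

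FOXA3, the forkhead factor that is kept in adult liver, had 235 UMIs at D8, 35.4 CPM (31.1 to 40.3). It had 134 UMIs at D14, 28.2 CPM (23.7 to 33.4), and 492 UMIs at D21, 65.5 CPM (59.8 to 71.5). Hepatic-like cells were above both early groups, whose intervals overlapped. The log2 ratio was 1.21 (0.94 to 1.5) for D21 over D14 and 0.88 (0.66 to 1.12) for D21 over D8. FOXA3 also had a low level in every other D8 cell group, 5.85 to 11.9 CPM, and in every other D14 group, 3.35 to 8.10 CPM, against 0 to 2.61 CPM in the other D21 groups.

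HHEX had 2307 UMIs in D8 early endoderm-like cells, 348 CPM (334 to 362). It had 1344 UMIs at D14, 283 CPM (268 to 299), and 763 UMIs in D21 hepatic-like cells, 102 CPM (94.5 to 109). The 3 intervals did not overlap and the order was D8, D14, D21. D14 cells had 2.79 times the D21 level and D8 cells 3.42 times, while the step from D8 to D14 was a log2 ratio of -0.30 (-0.40 to -0.20). HHEX differed less than FOXA2 between early and hepatic-like cells on this scale, with ratio intervals that did not overlap in either comparison, and 32.4% of hepatic-like cells still had an HHEX UMI after thinning to equal depth.

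HNF4A, the nuclear receptor that holds hepatocyte genes on, had 13 UMIs in the 256 D8 cells, 1.96 CPM (1.04 to 3.35). It had 19 UMIs in the 205 D14 cells, 4.00 CPM (2.41 to 6.25), and 477 UMIs in D21 hepatic-like cells, 63.5 CPM (57.9 to 69.5). The early groups overlapped, and D21 lay 15.1-fold above D14 and 30.1-fold above D8, log2 ratios of 3.92 (3.33 to 4.73) and 4.91 (4.23 to 5.94). All other D8 cells together had 1 HNF4A UMI and all other D14 cells 7, at 0.0249 and 0.154 CPM. Of the 7 at D14, 4 were in the 6 D14 cells of the hepatic-like cluster. With 1 count added, the log2 ratio of early over other cells was 5.41 (3.56 to 11.7) at D8, where it rests on that 1 UMI, and 4.58 (3.39 to 6.19) at D14. The antisense gene HNF4A-AS1 had 1 UMI in the 3 endoderm groups, in hepatic-like cells.

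HNF4A is read from a distal (P2) and a proximal (P1) promoter, and ONECUT factors are known to bind at HNF4A. Of the 8 genes, 6 had an entry in the RefSeq promoter table of GRCh38.p14, with 7 start sites in all. The 250 bases before each HNF4A start, 45540 bases apart, and those before FOXA1 are shown because they are the windows of the 6 genes that held a searched motif. Capitals mark the matches.
HNF4A upstream start, chr20:44355449-44355698, plus strand: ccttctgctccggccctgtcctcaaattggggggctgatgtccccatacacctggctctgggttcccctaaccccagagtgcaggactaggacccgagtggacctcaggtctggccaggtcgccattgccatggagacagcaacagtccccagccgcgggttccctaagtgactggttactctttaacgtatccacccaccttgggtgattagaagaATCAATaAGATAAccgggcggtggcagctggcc
HNF4A downstream start, chr20:44400989-44401238, plus strand: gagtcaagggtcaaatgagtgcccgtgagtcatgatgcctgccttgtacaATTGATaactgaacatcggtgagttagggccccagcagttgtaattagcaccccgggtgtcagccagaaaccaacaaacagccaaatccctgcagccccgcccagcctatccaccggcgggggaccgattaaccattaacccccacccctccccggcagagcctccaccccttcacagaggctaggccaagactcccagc
FOXA1, chr14:37595250-37595499, minus strand: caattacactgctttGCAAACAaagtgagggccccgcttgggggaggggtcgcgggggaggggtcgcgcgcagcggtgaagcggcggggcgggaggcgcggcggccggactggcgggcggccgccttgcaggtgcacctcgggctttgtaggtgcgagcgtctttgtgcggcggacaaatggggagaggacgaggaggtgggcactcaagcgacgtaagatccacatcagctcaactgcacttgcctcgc
The ONECUT motif was searched as ATCGAT or ATCAAT on both strands, and the upstream HNF4A window held it 33 bases before the start and the downstream window 200 bases before the start, against 6.19% of all 35116 windows of this length. The upstream window also held the GATA motif AGATAA, 26 bases before the start and not overlapping the ONECUT match (9.17% of windows). The FOXA motif, searched as TGTTTAC and as TGTTTGC and as TATTTAC, was matched on the reverse strand in the FOXA1 window 235 bases before the start (8.27% of windows). CAAAGTCCA and CAAAGGTCA and CAAAGTTCA for HNF4A (0.911% of windows) and TTGCNNAA for CEBP, where N is any base (9.05%), were also searched, and those letters were in none of the 7 windows. A match describes the letters and shows no binding, and the library counts the 3′ ends of transcripts, so the UMIs do not tell from which HNF4A start a transcript came.

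PROX1 had 29 UMIs at D8, 4.37 CPM (2.93 to 6.28). It had 54 UMIs at D14, 11.4 CPM (8.55 to 14.8), and 822 UMIs at D21, 109 CPM (102 to 117). The 3 intervals did not overlap, and D21 was 9.45-fold above D14 and 24.2-fold above D8. PROX1 differed from the other genes outside endoderm, since CM-like cells of the 3 days had 19.2, 43.8 and 54.1 CPM. It was not limited to CM-like cells. The unnamed cluster 0 of D14 had 36.6 CPM (33.4 to 40.0), D14 fibroblast-like cells 19.6 CPM and D8 endothelial-like cells 17.9 CPM. Early endoderm-like cells were at 0.452 of the level of the other D8 cells and 0.393 of the other D14 cells, and hepatic-like cells were 4.40-fold above the other D21 cells. With the CM-like level of the day subtracted, PROX1 was under the 3-count floor in both early groups. That had to follow, because the CM-like level was above both, so this subtraction cannot tell whether PROX1 of the early cells is background.

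ONECUT1, the cut-homeobox factor HNF6 of hepatoblasts and bile duct, had 8 UMIs at D8, 1.21 CPM (0.521 to 2.38). It had 43 UMIs at D14, 9.06 CPM (6.56 to 12.2), and 210 UMIs at D21, 28.0 CPM (24.3 to 32.0). The order was D8, D14, D21 with no overlap. D14 was 6.83-fold above D8, log2 2.77 (1.80 to 4.21), and D21 a further 3.03-fold above D14, log2 1.60 (1.15 to 2.13). All other cells of each library held 6, 7 and 9 ONECUT1 UMIs.

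CEBPA, the leucine zipper factor that drives hepatocyte metabolic genes, had 6 UMIs at D8, 0.905 CPM (0.332 to 1.97), close to the 0.797 CPM of the other D8 cells. It had 53 UMIs at D14, 11.2 CPM (8.37 to 14.6), and 1657 UMIs at D21, 221 CPM (210 to 231). Groups did not overlap, and the log2 ratio was 3.43 (2.41 to 5.13) for D14 over D8, 4.28 (3.91 to 4.73) for D21 over D14 and 7.71 (6.80 to 9.38) for D21 over D8. At D14 the other cells also had CEBPA, at 3.27 CPM, with 4.09 CPM in CM-like and 6.37 CPM in ectodermal epithelium-like cells, against 0.89 CPM in CM-like cells at D8. The antisense gene CEBPA-AS1 was at 0.453, 1.90 and 4.79 CPM in the 3 endoderm groups, and how the counting used strand, and so set its reads apart from those of CEBPA, is not given in the sources used here.

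Counting each gene that differed by 2-fold or more (with 1 count added), 5 of 8 were higher and 2 lower in D21 hepatic-like than in D14 early endoderm-like cells, where 11.6% of 8890 genes at 10 CPM or more were higher and 29.2% lower. For D21 over D8, 5 were higher and 2 lower, against 13.5% and 33.2% of 8932 genes. For D14 over D8, 4 were higher (FOXA1, PROX1, ONECUT1 and CEBPA) and 0 lower, against 5.83% and 3.76% of 8645 genes, and HNF4A, at a ratio of 1.996, lay just inside 2-fold with an interval that spanned equality. HNF4A and ONECUT1 were under 10 CPM on both days, so only the other 6 of the 8 genes are among the 8645. The median log2 ratio of the 8 genes was 1.40, 2.99 and 1.11 in these comparisons. Over genes at 10 CPM or more in either group it was -0.48, -0.55 and -0.09. In the D21 comparisons HNF4A and ONECUT1 pass that limit only through D21, as PROX1 and CEBPA do against D8. For D14 over D8 PROX1 and CEBPA pass it only through D14, and HNF4A and ONECUT1 enter only the median of the 8 genes. These medians are a description. The D21 group is the same in both D21 comparisons and each early group enters 2 of the 3 comparisons. UMIs of the 12 hepatic markers, APOA1, APOA2, TTR and mitochondrial genes made up 22.4% of the D21 hepatic-like total but 2.13% and 2.37% of the early totals. TMM scaling, which sets the median gene near 0, gave 18.1% higher and 17.0% lower for D21 over D14 and 21.7% and 18.3% for D21 over D8. Under it FOXA3 passed 2-fold for D21 over D8 (1.44), HHEX lay inside it for D21 over D14 (-0.99) and no gene called under CPM changed direction.

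**Figure D2:**
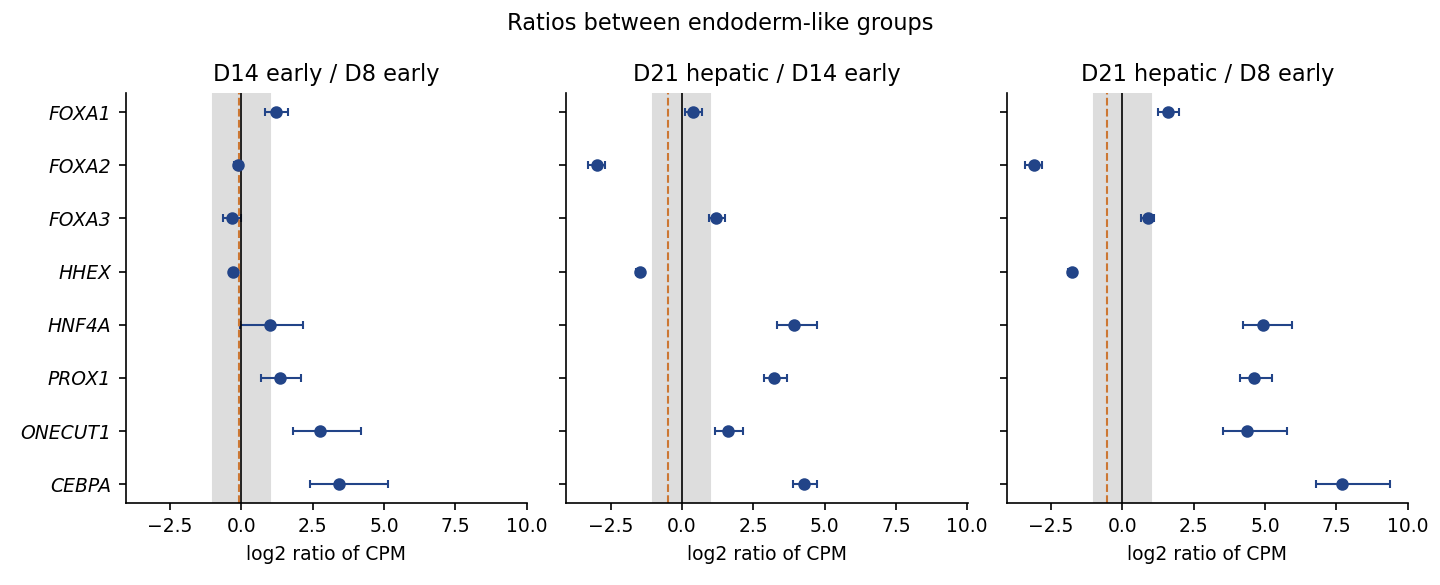
Log2 ratio of CPM (x axis, 1 count added) of the 8 genes in the 3 comparisons of endoderm-like groups, with 95% exact intervals of counting error. The grey band is 2-fold either way and the dashed line is the median of all genes at 10 CPM or more. FOXA2 and HHEX lie left of the band in both D21 panels, and HNF4A, PROX1, ONECUT1 and CEBPA lie right of it.

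The share of cells in which a gene was found depends on depth, so each cell was thinned to 4000 UMIs, which kept every cell. FOXA2 was then found in 37.1% (31.2 to 43.3) of D8 cells, 33.2% (26.8 to 40.1) of D14 cells and 7.19% (4.56 to 10.7) of hepatic-like cells, and HHEX in 60.9%, 58.5% and 32.4%. CEBPA was found in 0 of 256 thinned D8 cells, which by 3 counts allows up to 1.17% of cells with a UMI at this depth (6 cells, 2.34%, had one before thinning), in 5.85% (3.06 to 10.0) of D14 cells and in 50.3% (44.6 to 56.1) of hepatic-like cells. PROX1 went from 3.12% and 5.85% to 34.3%, HNF4A from 0.781% and 1.95% to 19.0%, and ONECUT1 from 0.391% and 4.39% to 11.4%. FOXA1 was in 4.30%, 7.80% and 12.1% of cells and FOXA3 in 14.1%, 11.7% and 20.9%. CM-like cells, which should lack 7 of the genes, had them in 0% to 2.22% of cells over the 3 days at the same thinned depth (median depths before thinning 12302 to 14444 UMIs against 20529 to 23629.5 UMIs in endoderm). The D8 share of CEBPA was at or below that of CM-like cells (0.412%) and reads as background. The D8 shares of HNF4A and ONECUT1 overlapped those of CM-like cells (0 of 485 cells, up to 0.619%), although their D8 CPM lay above that of all other D8 cells. PROX1 was in 6.60%, 15.6% and 16.7% of CM-like cells, above both early endoderm-like groups. Without thinning, hepatic-like cells had HNF4A in 65.0%, PROX1 in 80.1%, CEBPA in 87.3% and FOXA2 in 28.8% of cells, and D8 cells had HHEX in 89.1% and FOXA2 in 81.6%.

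**Figure D3:**
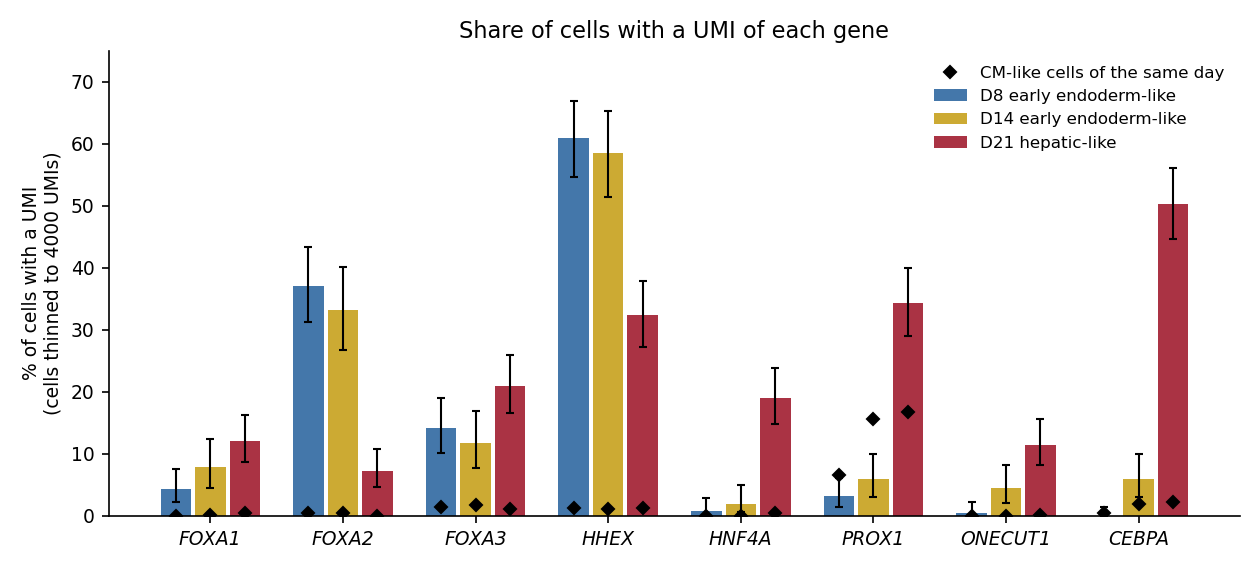
Percentage of cells with at least 1 UMI of each gene after thinning to 4000 UMIs per cell (y axis), in D8 and D14 early endoderm-like and D21 hepatic-like cells (bars, 95% Clopper-Pearson intervals) and in CM-like cells of the same day (diamonds). HHEX is found in 60.9%, 58.5% and 32.4% of cells and CEBPA in 0%, 5.85% and 50.3%, while the PROX1 diamonds exceed the early bars.

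In its library each endoderm-like group was compared with all other cells. These other cells include 6 D14 cells of the hepatic-like cluster and 1 D21 cell of the early clusters. FOXA1, FOXA2, FOXA3, HHEX, HNF4A and ONECUT1 were 2-fold or more higher in endoderm-like cells on D8, 6 of 8 genes where 4.79% of 8659 genes were higher, and the same 6 with CEBPA on D14 (7 of 8 against 5.33% of 9327 genes). PROX1 was 2-fold or more lower on both days, where 5.81% and 12.5% of genes were lower. All 8 were higher on D21, where 11% of 9019 genes were. These shares are over genes at 10 CPM or more in either group. At D8 HNF4A, ONECUT1, PROX1 and CEBPA were under that in both groups, as HNF4A and ONECUT1 were at D14, so the shares do not cover them. The log2 ratio at D21 was lowest for PROX1, 2.14 (1.98 to 2.29), and HHEX, 2.63 (2.46 to 2.82). That of FOXA2, 7.48 (5.96 to 13.8), rests on 1 UMI in the other D21 cells, and its interval overlapped those of FOXA1, FOXA3, HNF4A, ONECUT1 and CEBPA. The other cells had 1.2% to 2.36% of the hepatic-like level of the 12 hepatic markers at D21, and FOXA1 (1.25%), FOXA3 (1.31%), ONECUT1 (1.38%) and CEBPA (1.88%) lay within that range. HNF4A (0.876%) and FOXA2 (0.282%, from 1 UMI) lay below it, and HHEX (16.1%) and PROX1 (22.7%) above it. HHEX outside endoderm was highest in endothelial-like cells, whose levels were 217 CPM (187 to 251), 207 CPM (173 to 245) and 116 CPM (89.7 to 147) over the days. The D21 endothelial-like level overlapped that of the hepatic-like cells, while at D8 and D14 early endoderm-like cells were above it. D21 fibroblast-like cells had 21.3 CPM of HHEX (18.7 to 24.2). PROX1 outside endoderm was highest at D21 in CM-like cells and in the unnamed cluster 17 (45.3 CPM, 58 cells). Endothelial-like cells had 17.9 CPM of PROX1 at D8, 9.34 CPM at D14 and 3.51 CPM (0.425 to 12.7) from 2 UMIs at D21.

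**Figure D4:**
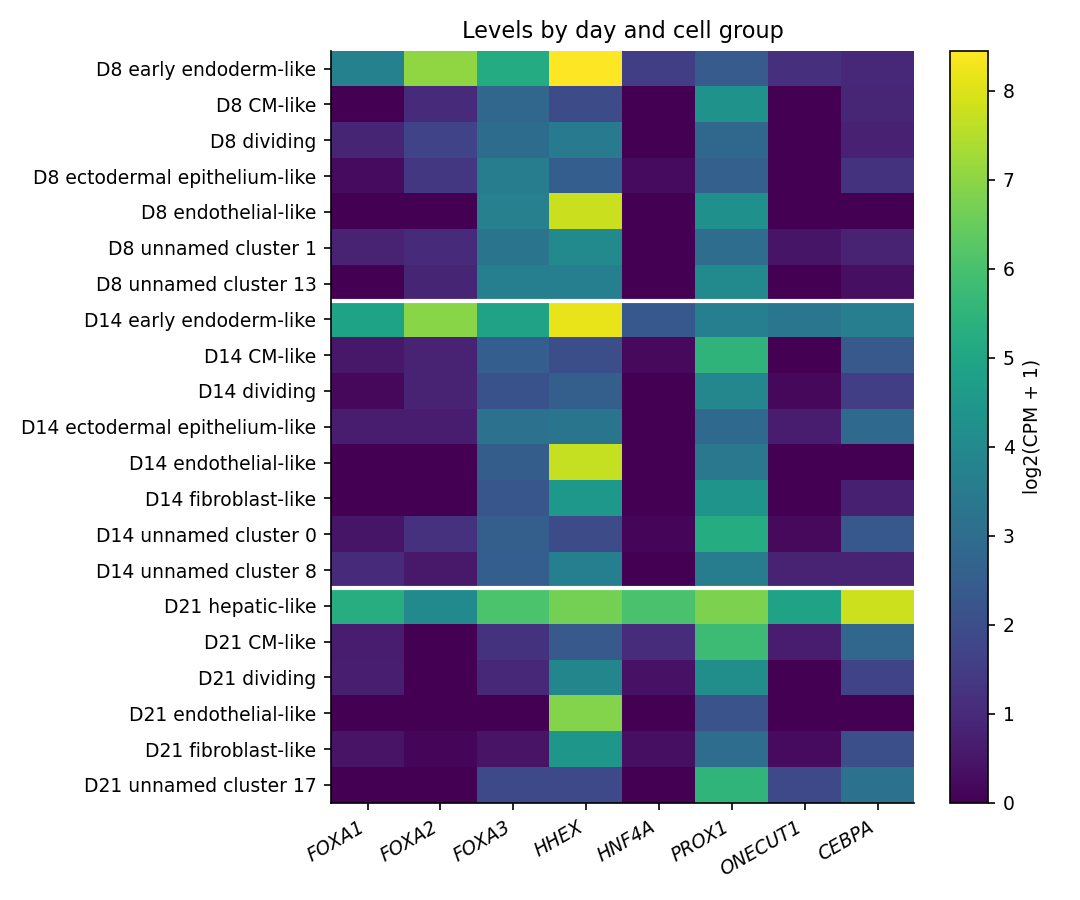
Level, as log2(CPM + 1) (colour), of the 8 genes (columns) in each group of at least 20 cells, by day (rows, white lines between days). FOXA1, FOXA2, HNF4A and ONECUT1 are at most 2.61 CPM in every row outside endoderm, and HHEX is also bright in the endothelial-like rows of all days (116 to 217 CPM). PROX1 is bright in the CM-like rows (19.2 to 54.1 CPM) and in others, such as the unnamed cluster 0 of D14 (36.6 CPM).

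Cells were next described by how many of the 8 genes they held. At equal depth at least 1 gene was found in 76.2% of D8, 78.5% of D14 and 88.9% of D21 cells, and 3 or more in 6.64%, 10.7% and 29.4%. Of CM-like cells 9.90%, 20.1% and 21.1% had at least 1 gene. Most of these held PROX1, which was in 6.60%, 15.6% and 16.7% of CM-like cells. With all UMIs the median was 3, 3 and 5 genes per cell, and all 8 were found together in 16 of 306 hepatic-like cells and in 0 early cells. FOXA2 and HHEX were found together in 198 of 256 D8 cells, 132 of 205 D14 cells and 74 of 306 hepatic-like cells. In hepatic-like cells the 74 were 84.1% of the cells with FOXA2 and 31.8% of those with HHEX. PROX1 and CEBPA were found together in 0 D8 cells, 10 D14 cells and 220 hepatic-like cells, and HNF4A and CEBPA in 1, 3 and 181. Of the 88 hepatic-like cells with FOXA2, 77 (87.5%) also had CEBPA, beside 87.3% of all hepatic-like cells. At D14, 31 of 37 cells with CEBPA (83.8%) had FOXA2 and 34 (91.9%) had HHEX, beside 79.0% and 81.0% of all D14 cells. Such counts follow the depth of each cell and are a description.

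**Figure D5:**
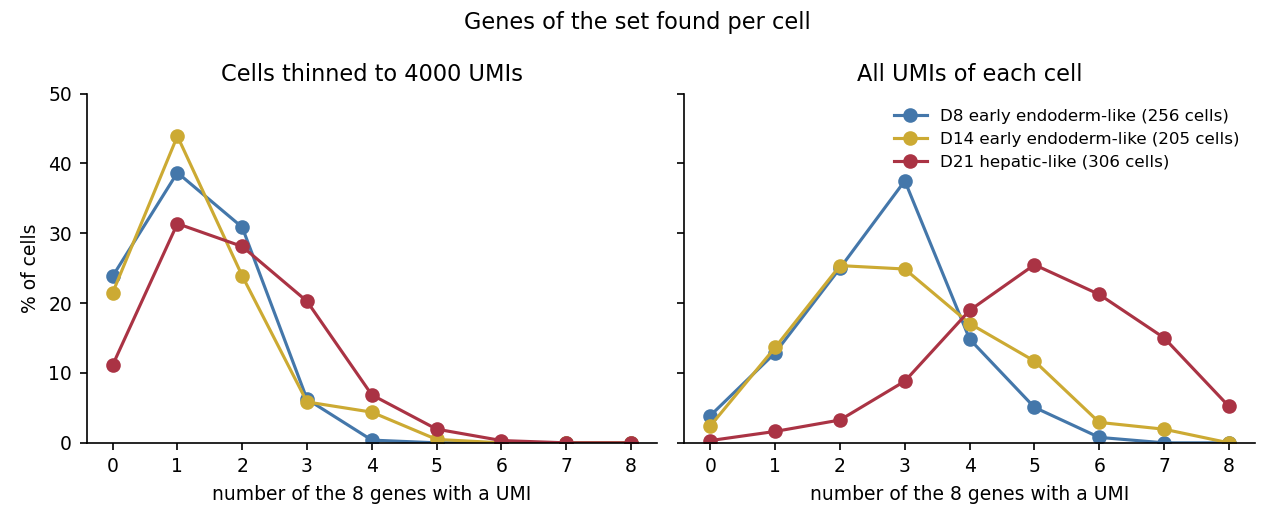
Percentage of cells (y axis) by the number of the 8 genes with a UMI (x axis), after thinning to 4000 UMIs per cell and with all UMIs, in the 3 endoderm-like groups. The hepatic-like curve peaks at 5 genes with all UMIs, 2 more than the D8 curve, and 16 of its 306 cells reach all 8.

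D14 early endoderm-like cells came from 2 clusters. The 31 cells of cluster 11, the cluster that held the D8 cells, and the 174 of cluster 14 had FOXA2 at 120 CPM (97.9 to 146) and 122 CPM (111 to 133). For CEBPA, cluster 11 had 23.6 CPM (14.4 to 36.4) against 8.47 CPM (5.83 to 11.9) in cluster 14, without overlap. ONECUT1 had 2 UMIs and HNF4A 0 in cluster 11, against 41 and 19 UMIs in cluster 14, at 2.36 CPM (0.285 to 8.51) and up to 4.34 CPM against 10.5 CPM (7.55 to 14.3) and 4.88 CPM (2.94 to 7.61), and the intervals overlapped. For HHEX the levels were 326 and 274 CPM, with intervals that overlapped slightly (289 to 367 and 258 to 291). A further 6 D14 cells fell in the hepatic-like cluster 9. They held 33 HHEX, 21 PROX1, 16 FOXA2, 10 CEBPA, 9 FOXA3, 8 FOXA1, 4 HNF4A and 0 ONECUT1 UMIs of 135041 in all. They enter no comparison between endoderm groups, but are counted among the other D14 cells. The 1 D21 cell in the early clusters held 2 HHEX UMIs and 1 each of FOXA1, HNF4A and CEBPA.

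Among 32 other transcription factors of endoderm, gut tube and liver, 12 were higher, 7 lower and 13 within 2-fold in D21 hepatic-like against D14 early cells, with a median log2 ratio of 0.66. Against D8 the counts were 16, 8 and 8, and for D14 over D8 they were 7, 5 and 20. Over all genes at 10 CPM or more, 11.6% were higher and 29.2% lower for D21 over D14. For D21 over D8 these shares were 13.5% and 33.2%, and for D14 over D8 5.83% and 3.76%. They also stand beside the counts of the single lists below. Of the 32 factors only 20, 19 and 15 were at 10 CPM or more in these comparisons. Of the 7 early endoderm factors, 3 were lower at D21 than at D14 and 5 lower than at D8, and 0 were higher. OTX2, a factor of anterior endoderm and head, stood at 66.7 and 26.3 CPM on D8 and D14 and had 0 UMIs on D21, at least 66.0-fold below D14. LHX1 was at 54.8, 11.6 and 0.266 CPM, MIXL1 at 1.51, 7.59 and 0.133 CPM, and EOMES, with 2.56 CPM at D8, was at 0 UMIs at D14, as was GSC at D14 and D21. GATA4 (16.6, 9.69 and 15.6 CPM) and GATA6 (8.6, 17.1 and 15.2 CPM) stayed within 2-fold in every comparison.

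The 17 liver factors were led by the bile acid receptor NR1H4 and its target NR0B2, which had 497 and 450 UMIs in hepatic-like cells, 66.2 and 59.9 CPM, and 0 UMIs in both early groups. These are at least 105-fold and 94.8-fold above D14. CM-like cells of D21 had 2.06 and 1.92 CPM of them, and CM-like cells of D14 had 27 UMIs of NR0B2, 2.04 CPM. In all, 8 of the 17 were higher at D21 than at D14, including NR5A2 (0.632 to 18.5 CPM), CREB3L3 (0.421 to 6.52 CPM), CEBPD (12.6 to 32.3 CPM), KLF15 (1.26 to 5.59 CPM) and XBP1 (188 to 482 CPM). TBX3, which sustains hepatoblasts, was lower (130 to 23.7 CPM), as was NR2F2 (114 to 26.4 CPM). Over D8, CEBPB, ONECUT2 and PPARA were also higher at D21, 11 of 17 in all. For D14 over D8 the 3 higher liver factors were NR2F2, CEBPB and CEBPD, and NR5A2 was lower on 3 against 12 UMIs with an interval that spanned equality. The xenobiotic receptor NR1I2 had 0 UMIs in all 3 groups, at most 0.399 CPM in hepatic-like cells by the 3-count floor. The related CEBPB and CEBPD had the same order over the days as CEBPA, and the paralogue ONECUT2, at 29.6, 49.1 and 67.4 CPM, the same order as ONECUT1.

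Gut tube factors were mixed. SOX9 (14.5, 17.1 and 37.7 CPM), PDX1 (0.151, 0.421 and 5.32 CPM) and CDX2 (0, 0.211 and 8.79 CPM) were higher at D21 than at D14, and SOX2, a factor of anterior foregut, was lower (7.99, 14.3 and 0.133 CPM). NKX2-1 was also counted lower, on 0 against 3 UMIs. HLX was higher at D21 than at D8 on 6 against 0 UMIs. The 3 gut tube factors counted higher at D14 than at D8, PDX1, CDX2 and HLX, rest on 1 or 2 UMIs at D14 and have intervals that span equality.

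Of 14 genes of later hepatocyte function, 13 were higher in hepatic-like cells than in either early group and 0 were lower, 11 of them with an interval apart from equality. Over all genes at 10 CPM or more, 11.6% were higher than at D14 and 13.5% higher than at D8. In each comparison 7 of the 14 were at 10 CPM or more. ASGR1, the asialoglycoprotein receptor, stood at 869 CPM against 22.1 CPM at D14, the urea cycle enzymes ARG1 and CPS1 at 115 and 50.7 CPM against 4.42 and 9.27 CPM, and TDO2, which breaks down tryptophan, at 51.9 CPM against 6.11 CPM. The fetal cytochrome CYP3A7 had 2483 UMIs, 331 CPM, and its adult counterpart CYP3A4 84 UMIs, 11.2 CPM, with 0 of either in both early groups. These paralogues are close in sequence, so how reads were split between them is uncertain. PCK1 was at 15.8 CPM, and CYP7A1, G6PC and TAT at 3.59, 3.59 and 2.40 CPM. The bile acid transporters ABCB11 and SLC10A1 had 4 UMIs each and UGT1A1 had 1.

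For each gene the genes with the most similar pattern were taken as those with the highest Pearson correlation of log2(CPM + 1) over 24 day and cluster groups, among 9697 genes. The groups share libraries, and the values are a description. They were DCDC2 (0.96), ONECUT2 (0.95) and LINC00261 (0.93) for FOXA1, and LINC00348 (0.95), GLUD2 (0.94) and TMC5 (0.92) for FOXA2. For FOXA3 they were ESPN (0.90), SDC4 (0.88) and RND1 (0.88), and for HHEX SYT17 (0.85), KITLG (0.82) and CST1 (0.81). For HNF4A they were LYZ (0.97), PDZK1 (0.96) and CIDEB (0.94), and for CEBPA RBP5 (0.94), MBNL3 (0.93) and SERPINA5 (0.89). ONECUT1 was most like GUCA2A (0.90), FXYD3 (0.88) and AGR2 (0.85), and PROX1 most like PPP1R16A (0.87), RGN (0.85) and IQSEC1 (0.85).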

How the data were processed

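The authors built Chromium Single Cell 3′ v2 libraries from TrypLE-dissociated CCOs, 1 per day. The submitters' processing notes name Cell Ranger, Seurat 3.2.1 and the hg19 build; how strand was used in counting is not given in the sources used here. They deposited 1 merged table of raw UMI counts, whose barcode endings give the day.

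The study's limits were applied to each barcode: over 2000 genes, under 7500 genes and below 10% mitochondrial UMIs (30898727 to 50247286 UMIs per day, 4007 to 95021 per cell). They were log-normalized and clustered in Seurat 5.3.0 (R 4.3.3) without integration, on 20 principal components of 1975 of 2000 variable genes at resolution 0.8. A cluster was named if at least 3 markers of a class were raised 2-fold (with 10 CPM added) over the rest of its library and at least 2 more than of any other class. Scrublet called 9, 1 and 6 cells (0.339%, 0.0279% and 0.308%), which is too few for the caller to have worked, so doublets were kept and the 5% highest scores were left out as an alternative.

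UMIs were summed per group and divided by the group total, as CPM. With 1 library per day no model was fitted. CPM intervals are exact Poisson, ratio intervals come from the exact binomial split of both counts, and shares are Clopper-Pearson, all at 95%. Only the ratios, their intervals and the 2-fold calls were tried on simulated data. Those counts were drawn from the Poisson model that the ratio intervals assume, so the trial tells nothing about spread between cells or libraries. A gene was counted as higher or lower at 2-fold with 1 count added, and background shares are over genes at 10 CPM or more in either group. Folds against a group at 0 use a floor of 3 counts over the group. The 8 genes, the markers and all lists were chosen with earlier results of these data known. Named are all 8 genes, listed genes that differed 2-fold or were at 0, and 3 genes per member with the most similar pattern over groups of at least 30 cells (genes reaching 20 CPM); GATA4, GATA6, ABCB11, SLC10A1 and UGT1A1 are also given, and some listed genes, though counted, are not reported here. Promoter sequences are from RefSeq. Python 3.11.15, numpy 2.4.6, scipy 1.17.1 and edgeR 4.0.16 (TMM scaling only) were used.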

Additional observations from a re-analysis of the deposited data

Results flagged for a closer look

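In the D21 library, 1982 barcodes that passed the limits on genes were left out because at least 10% of their UMIs were mitochondrial. Of these, 201 drew at least 2% of their UMIs from the 12 hepatic markers, a gate chosen after seeing the data. They had not entered any of the main comparisons. The 8 genes were all found in them, with FOXA1 at 28.8 CPM, FOXA2 at 16.4 CPM, FOXA3 at 59.5 CPM and HHEX at 90.5 CPM. HNF4A was at 59.1 CPM, PROX1 at 122 CPM, ONECUT1 at 31.2 CPM and CEBPA at 254 CPM. The other 1781 left-out barcodes were at 0.256 CPM (FOXA2) to 4.27 CPM (CEBPA) for 7 of the genes and at 60.0 CPM for PROX1. Intervals of the 201 barcodes overlapped those of the kept hepatic-like cells for 7 of the genes, and CEBPA was higher in the 201 (239 to 270 against 210 to 231 CPM). Those kept cells were picked by cluster and not by the gate. In the 310 kept D21 cells under the same gate, CEBPA was at 227 CPM (216.3 to 238.5), with an interval just short of that of the 201 (238.8 to 269.6). The left-out barcodes with hepatic markers were singled out because they hold signal in data outside every comparison. The 201 barcodes had a median mitochondrial share of 11.6%. What set that share was not tested.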

How the results depend on the processing

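Each log2 ratio was recomputed under 15 alternatives, 14 that give a ratio and the difference of mean log-normalized values, which gives a direction, making 360 values for 24 ratios, and 0 of the ratios past 2-fold changed direction. No alternative by replicate was possible with 1 library per day. No paired analysis was possible because each day is a single library. At resolution 0.4 early endoderm-like cells merged with ectodermal epithelium-like cells, giving 458 cells at D8, 47.8% (D8) and 61.7% (D14) of cells with any of the 8 genes, and 1 gene lower for D21 over D8, where HHEX was at -0.97. A mitochondrial limit of 5% left 73 hepatic-like cells, 54.8% of them with any of the genes, and 3 genes higher for D21 over D14, FOXA3 and ONECUT1 being lost. That cluster also had 8 CM markers raised. A limit of 20% gave 462 hepatic-like cells. Gating by markers in place of clusters gave 146 D8 and 91 D14 cells, 69.5% of 430 D21 cells with any gene, and 3 genes higher for D21 over D14 (FOXA3 0.72, ONECUT1 0.88). Requiring hepatic markers at 2% of UMIs, chosen after seeing the data, gave 310 cells of which 276 were in the cluster, and 83.5% with any gene. TMM and median-of-ratios scaling left 1 gene lower for D21 over D14, FOXA2. HNF4A passed 2-fold for D14 over D8 under 11 of 14 alternatives that give a ratio, so 5 genes were then higher, and subtracting the CPM of CM-like cells left 3, without PROX1. The PROX1 value there (0.48) is only the ratio of the 3-count floors of both early groups, since PROX1 was under the floor in each. CM-like cells had more PROX1 than both early groups, so its loss from that count was fixed beforehand. With no filter on low genes, the share of all genes higher and lower for D14 over D8 went from 5.83% and 3.76% to 16% and 8.42% (504 and 325 genes to 3269 and 1716), for D21 over D14 from 1031 and 2593 genes to 2116 and 7759, and for D21 over D8 from 1204 and 2964 to 2808 and 8347. Without thinning, cells with any gene were 96.1%, 97.6% and 99.7%, and with at least 2 UMIs of a gene 44.1%, 39.0% and 41.2%. Of 288 shares of single genes, 65 moved outside their main interval. Ratios of genes with under 30 UMIs in a group (HNF4A, ONECUT1, CEBPA and PROX1 at D8, and HNF4A at D14 with 19 UMIs) are limited by counting error.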

Other observations

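CDX2, a factor of hindgut and intestine, and PDX1, a factor of pancreas and duodenum, were found in D21 hepatic-like cells, and both were looked at more closely after their values were seen. CDX2 had 66 UMIs in 22 of 306 cells, 7.19% (4.56% to 10.7%, Clopper-Pearson), with up to 7 UMIs in a cell. PDX1 had 40 UMIs in 28 cells, 9.15% (6.17% to 13.0%), with up to 6 UMIs in a cell. CM-like cells of D21 had 0 UMIs of either in 540 cells, which by 3 counts allows up to 0.556% of cells with a UMI and sets no limit on cells that express them. Of the 22 cells with CDX2, 16 also had CEBPA, 11 had HNF4A and 7 had FOXA2, and of the 28 with PDX1, 23 had CEBPA, 16 had HNF4A and 10 had FOXA2. Beside these, 87.3% of all 306 hepatic-like cells had CEBPA, 65.0% had HNF4A and 28.8% had FOXA2. In the early groups CDX2 had 0 UMIs at D8 and 1 at D14, and PDX1 had 1 and 2.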
